A study of Caenorhabditis elegans with 27 samples.

Results

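The 10 genes described here encode enzymes that carry carbon from fat and propionate towards sugar in the nematode Caenorhabditis elegans: icl-1, pck-1, pck-2, fbp-1, aldo-1, aldo-2, gpi-1, mdh-1, mdh-2 and pcca-1. They were chosen by name, through the gene symbols annotated to the probe sets of an Affymetrix expression array; the choice was made with earlier results of these data known. The 10 genes had 16 probe sets annotated to 1 gene each, among 11102 probe sets tested for 8363 genes. All 16 passed the filter on low values, and all 16 lay over log2 5 in every one of the 27 arrays. The lowest of their values was 6.01, so that no gene entered the test through a single high group. Of the 10 genes, icl-1 had 3 probe sets, fbp-1, aldo-1, mdh-2 and pcca-1 had 2 each, and the others had 1.

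The arrays measured RNA of whole, pooled worms of strain GE24, and every group, the untreated ones included, carried pha-1(e2123), a temperature-sensitive allele that is known to stop embryos from developing at the restrictive temperature. Worms were kept with HuminFeed-Hydroquinone (HF-HQ) and harvested at 3 days, or with HuminFeed (HF), a humic substance preparation, and harvested at 11 or at 3 days. Each of these 3 experiments had doses of 0, 0.2 and 2.0 mM dissolved organic carbon, with 3 arrays per dose, which made 9 groups. Cultures were started at 15 °C and the synchronised larvae, 15000 per experiment, were raised at 25 °C; the harvested worms are described as adults, whereas L4 larvae is the entry in the age field of every array. The labels say that each condition was cultivated in triplicate but not whether the 3 populations were independent, so the p-values measure the spread between arrays, whatever its source.

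The glyoxylate cycle is a short cut through the citric acid cycle that skips the steps at which carbon is lost as carbon dioxide. It lets an organism turn acetyl-CoA from fatty acids into malate and oxaloacetate, and, through gluconeogenesis, into sugar. Nematodes are unusual among animals in having this cycle, which in C. elegans is known for embryos and for larvae without food. In C. elegans icl-1 encodes 1 protein with both activities particular to the cycle, isocitrate lyase and malate synthase. The mdh genes encode malate dehydrogenases, which interconvert malate and oxaloacetate, and the pck genes encode phosphoenolpyruvate carboxykinases, which open gluconeogenesis by turning oxaloacetate into phosphoenolpyruvate. Aldolase (aldo-1, aldo-2) and glucose-6-phosphate isomerase (gpi-1) work in glycolysis and gluconeogenesis alike, while fructose-1,6-bisphosphatase (fbp-1) serves gluconeogenesis. The gene pcca-1 encodes the alpha subunit of propionyl-CoA carboxylase, through which propionate enters the citric acid cycle.

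Values are log2 levels as deposited, and each gene is given by its probe set with the highest mean unless another is named. The 3 experiments had separate value distributions, with 75th percentiles per array of 9.28 to 9.39 with HF-HQ, 7.35 to 7.42 with HF at 11 days and 7.45 to 7.53 with HF at 3 days. Levels were therefore compared mainly within an experiment, and comparisons across experiments are given as deposited together with ranks within the array or values after quantile normalization of all arrays. A gene was called where limma gave a Benjamini-Hochberg adjusted p under 0.05 over all 11102 probe sets, and the words rose and fell are used for called genes. Over these probe sets the arrays of a group correlated at 0.987 to 0.999. The lowest value was in the group with 0.2 mM HF-HQ, where array 2 also stood apart for gpi-1. Calls that rest on this array are given with and without it. Since whole worms mix gut, muscle, skin, germ line and embryos, fewer cells of a type and less RNA per cell cannot be told apart. Of the 16 probe sets 12 have names ending in s_at or x_at, the array maker's mark for probe sets that may also bind related transcripts.

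**Figure D1:**
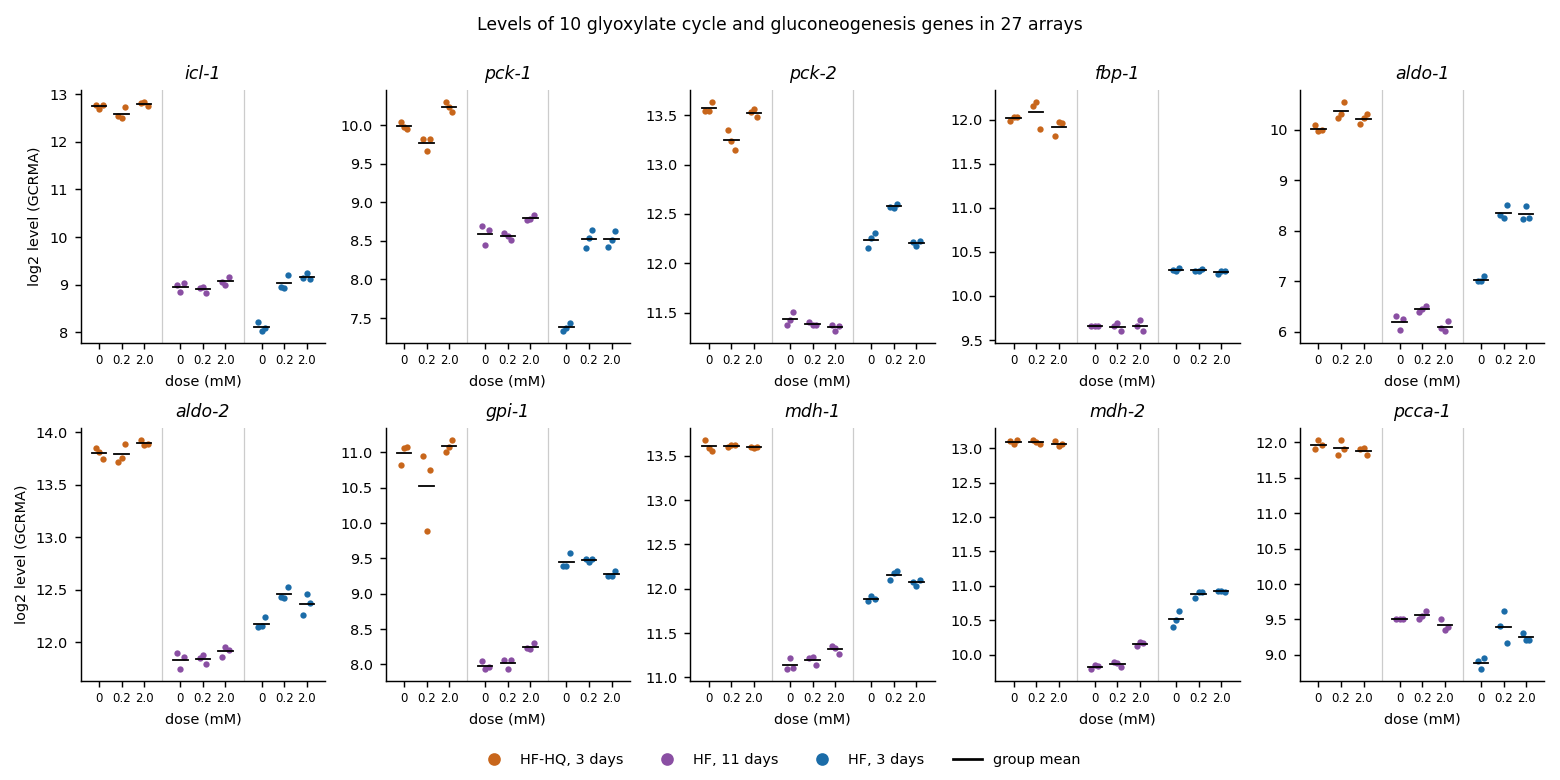
Each panel shows 1 gene, with the log2 level of every array against the dose in mM for HF-HQ at 3 days, HF at 11 days and HF at 3 days, and a bar at the group mean. With HF at 3 days the untreated arrays of icl-1, pck-1 and aldo-1 lie below all treated arrays. As deposited, the HF-HQ arrays of these genes lie above those of both HF experiments. After quantile normalization the pck-1 means were 8.53 to 9.01 with HF-HQ and 9.26 to 9.52 with HF at 11 days. With HF at 3 days they were 7.93 untreated and 9.08 to 9.09 treated. As plotted, the 11-day arrays of icl-1 and pck-1 overlap the treated arrays of HF at 3 days.

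In 3-day-old worms HF raised most of these genes. With 0.2 mM HF 8 of the 10 genes rose and 0 fell, while 26.0% of all probe sets were called higher and 32.9% lower. With 2.0 mM HF 7 rose and 0 fell, against 28.0% of all probe sets higher and 32.9% lower. At an unadjusted p under 0.05 limma gave the same counts, 8 and 0 at 0.2 mM and 7 and 0 at 2.0 mM. The median change of the 10 genes was 0.35 at 0.2 mM and 0.27 at 2.0 mM on the log2 scale, where the medians of all tested probe sets were -0.03 and -0.02. The largest changes were those of aldo-1, pck-1 and icl-1, each at least 1.89-fold at both doses, and the others that rose changed by 0.19 to 0.51. The balance of all calls flipped with arrays centred on their medians at both doses, but not after quantile normalization. At 0.2 mM HF it was 2887 higher and 3650 lower as deposited, 3528 and 2982 with centred arrays, and 2986 and 3453 after quantile normalization. At 2.0 mM HF it was 3106 and 3650, 3526 and 3119, and 3204 and 3405 in the same order. The counts of the 10 genes stayed at 8 in all 14 alternatives at 0.2 mM and at 6 to 7 at 2.0 mM.

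The level of icl-1 was 8.22, 8.02 and 8.09 in the 3 arrays at 0 mM, 8.95, 8.93 and 9.21 at 0.2 mM HF and 9.14, 9.25 and 9.12 at 2.0 mM HF. Both treated groups lay wholly above the untreated one and overlapped each other. The log2 change against untreated worms was 0.92 ± 0.08 at 0.2 mM (SE, n = 3 arrays per group, adjusted p = 3.1e-09) and 1.06 ± 0.08 at 2.0 mM (adjusted p = 2.2e-10), which are 1.89-fold and 2.08-fold. The other 2 probe sets of icl-1 gave like sizes, and over all 3 the changes ran from 0.92 to 0.95 at 0.2 mM and from 0.97 to 1.06 at 2.0 mM. By rank within the array, the median percentile of icl-1 among the tested probe sets was 57.1 at 0 mM, 71.2 at 0.2 mM and 73.6 at 2.0 mM.

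Of the pair of carboxykinase genes, pck-1 moved as icl-1 did. Its level was 7.33, 7.37 and 7.43 at 0 mM, 8.41, 8.53 and 8.64 at 0.2 mM HF and 8.42, 8.51 and 8.63 at 2.0 mM HF. The treated arrays again lay above all untreated ones, and the doses could hardly be told from each other. The change was 1.15 ± 0.07 at 0.2 mM (2.22-fold, adjusted p = 3.2e-11) and 1.14 ± 0.07 at 2.0 mM (2.21-fold, adjusted p = 1.6e-11). For pck-2 the arrays read 12.15, 12.26 and 12.30 at 0 mM, 12.57, 12.56 and 12.60 at 0.2 mM and 12.21, 12.18 and 12.22 at 2.0 mM. Here the 0.2 mM arrays stood above both other groups, which overlapped. The gene pck-2 rose by 0.34 ± 0.05 at 0.2 mM (adjusted p = 1.7e-05), while its change at 2.0 mM was -0.03 with a 95% interval of -0.15 to 0.08.

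Among the sugar phosphate enzymes aldo-1 had the largest change of the 10 genes. Its level was 7.0, 7.01 and 7.10 at 0 mM, 8.31, 8.25 and 8.51 at 0.2 mM HF and 8.23, 8.48 and 8.26 at 2.0 mM HF. No treated array came within 1 log2 unit of the untreated ones. Aldolase gene aldo-1 rose by 1.32 ± 0.09 at 0.2 mM (2.49-fold, adjusted p = 1.6e-10) and by 1.29 ± 0.09 at 2.0 mM (2.45-fold, adjusted p = 1.1e-10), and its second probe set by 1.17 ± 0.06 and 0.95 ± 0.06. The second aldolase gene, aldo-2, had 12.14, 12.15 and 12.24 at 0 mM, 12.43, 12.42 and 12.52 at 0.2 mM and 12.26, 12.46 and 12.38 at 2.0 mM. It rose by only 0.28 ± 0.06 (adjusted p = 0.00033) and 0.19 ± 0.06 (adjusted p = 0.0090). The last call was lost without array 2 at 2.0 mM, with adjusted p = 0.064 and a change of 0.14. The bisphosphatase gene fbp-1, which serves gluconeogenesis but not glycolysis, had 10.29, 10.29 and 10.31 at 0 mM, 10.28, 10.28 and 10.31 at 0.2 mM and 10.25, 10.28 and 10.28 at 2.0 mM. It was not called, with intervals of the change of -0.14 to 0.12 at 0.2 mM and -0.15 to 0.10 at 2.0 mM. The isomerase gene gpi-1 was not called either (0.02 ± 0.16 and -0.18 ± 0.16), with intervals of -0.30 to 0.34 and -0.50 to 0.15.

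Both malate dehydrogenase genes rose in 3-day-old worms, by less than icl-1 and pck-1. The gene mdh-1 averaged 11.89 ± 0.03 at 0 mM, 12.16 ± 0.06 at 0.2 mM HF and 12.07 ± 0.03 at 2.0 mM HF (SD, n = 3 each). It rose by 0.27 ± 0.05 (adjusted p = 6.2e-05) and 0.19 ± 0.05 (adjusted p = 0.0023), and the treated arrays lay above all untreated ones. For mdh-2 the arrays read 10.40, 10.50 and 10.64 at 0 mM, 10.83, 10.91 and 10.90 at 0.2 mM and 10.93, 10.93 and 10.91 at 2.0 mM, again without overlap between treated and untreated. The change of mdh-2 was 0.37 ± 0.05 at 0.2 mM (adjusted p = 3.2e-06) and 0.41 ± 0.05 at 2.0 mM (adjusted p = 6.0e-07). Its second probe set was called at 0.2 mM (0.34 ± 0.13) and not at 2.0 mM (0.13). The propionate gene pcca-1 had 8.91, 8.80 and 8.96 at 0 mM, 9.41, 9.62 and 9.17 at 0.2 mM and 9.31, 9.21 and 9.21 at 2.0 mM. It rose by 0.51 ± 0.08 (adjusted p = 1.6e-05) and 0.36 ± 0.08 (adjusted p = 0.00068), and its second probe set by 0.42 and 0.51.

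The direct comparison of 2.0 mM with 0.2 mM HF at 3 days called only pck-2 of the 10 genes. It was lower at 2.0 mM, with a difference of -0.37 ± 0.05 (adjusted p = 1.7e-05), and its arrays at the higher dose lay among the untreated ones. Of all probe sets 13.4% were higher and 7.65% lower at 2.0 mM. Between these doses icl-1 differed by 0.14 (95% interval -0.02 to 0.30), pck-1 by -0.01 (-0.16 to 0.14) and aldo-1 by -0.03 (-0.22 to 0.16), none of them called. Without array 3 at 0.2 mM, however, icl-1 was higher (0.23, adjusted p = 0.039) and pcca-1 lower (-0.27, adjusted p = 0.014) at 2.0 mM. The second probe set of aldo-1 was lower at 2.0 mM (-0.22 ± 0.06, adjusted p = 0.012), which the first was not.

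**Figure D2:**
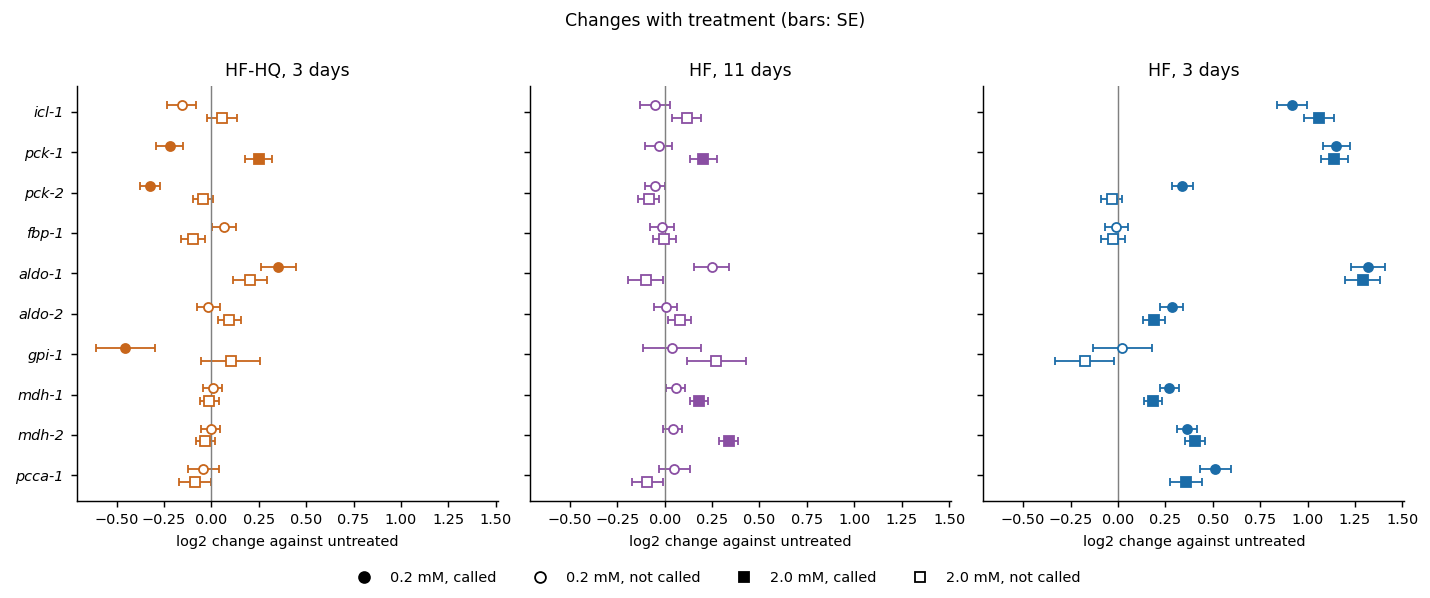
The log2 change against untreated worms of the same experiment is plotted for each gene (points, bars SE) with HF-HQ at 3 days, HF at 11 days and HF at 3 days; circles are 0.2 mM, squares 2.0 mM, and filled symbols are called. The HF-HQ and the 11-day points lie between -0.46 and 0.35, and those of HF at 3 days reach 1.32.

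Markers of several tissues moved in the same 3-day-old worms. Of 17 tested gut genes 13 rose and 0 fell at each dose of HF, and the mean log2 level of the list was 8.85 to 8.94 per array at 0 mM, 9.31 to 9.37 at 0.2 mM and 9.47 to 9.52 at 2.0 mM; mtl-1 was below log2 5 in all 9 arrays. Of 19 body wall muscle genes 12 rose and 0 fell at each dose, with means of 8.39 to 8.46 at 0 mM, 8.83 to 8.86 at 0.2 mM and 8.91 to 8.95 at 2.0 mM, and myo-3, ttn-1, unc-22 and unc-89 were below log2 5 throughout. Germ line and oocyte genes went the other way. Of 25 such genes 24 fell at 0.2 mM and 22 at 2.0 mM with 0 higher, and the list means were 10.57 to 10.61 at 0 mM, 10.07 to 10.16 at 0.2 mM and 10.15 to 10.18 at 2.0 mM. Of 26 sperm genes 24 rose and 0 fell at 0.2 mM and 26 fell at 2.0 mM (means 9.48 to 9.55, 10.02 to 10.07 and 8.41 to 8.56 at 0, 0.2 and 2.0 mM), and fer-1, spe-9, spe-38 and spe-41 were below log2 5. These lists kept their main direction with centred arrays and after quantile normalization, but the hypodermis list did not, with 2 higher and 3 lower at 2.0 mM after quantile normalization. Of 13 hypodermis genes 4 rose at 0.2 mM, and 3 rose and 1 fell at 2.0 mM, with list means of 6.75 to 6.82, 6.88 to 6.92 and 6.77 to 6.82 at 0, 0.2 and 2.0 mM. Of this list 9 to 10 members were below log2 5 in every array of a group, dpy-7, bli-1 and bli-2 among them. The part of these shifts in the changes of the 10 genes was not tested.

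Genes of neighbouring pathways moved in both directions at 3 days with HF. Of 25 tested genes of the citric acid cycle and its entry, 14 rose and 5 fell at 0.2 mM, and the counts were again 14 and 5 at 2.0 mM (median 0.27 and 0.25). The succinyl-CoA ligase gene sucl-1 had 9.24, 9.19 and 9.36 at 0 mM, 9.98, 9.99 and 10.13 at 0.2 mM and 10.22, 10.43 and 10.24 at 2.0 mM, and it rose by 0.77 ± 0.06 and 1.03 ± 0.06. In the same list idhg-1, which encodes a subunit of isocitrate dehydrogenase, fell at both doses (-0.71 ± 0.07 at 0.2 mM and -0.92 ± 0.07 at 2.0 mM). Of 14 tested glycolysis genes, out of 19 listed, 7 rose and 2 fell at 0.2 mM, and 6 rose and 2 fell at 2.0 mM (median 0.19 and 0.11). The pyruvate kinase gene pyk-2 rose by 0.50 ± 0.07 at 0.2 mM and the lactate dehydrogenase gene ldh-1 by 0.53 ± 0.07 at 2.0 mM, while the hexokinase gene hxk-1, at the entry of glucose into glycolysis, fell at both (-0.60 ± 0.08 and -0.68 ± 0.08).

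In the propionate list of 10 genes 4 rose and 1 fell at 0.2 mM HF, and 6 rose and 0 fell at 2.0 mM (median 0.08 and 0.16). The gene pccb-1 encodes the beta subunit that joins the product of pcca-1 in propionyl-CoA carboxylase, and it rose by 0.70 ± 0.10 and 0.61 ± 0.10. The semialdehyde dehydrogenase gene alh-8 rose by 0.43 ± 0.10 and 0.52 ± 0.10. Trehalose and glycogen are the worm's stores of glucose. Of 12 tested genes of both, out of 14 listed, 3 rose and 1 fell at 0.2 mM, and 4 rose and 3 fell at 2.0 mM (median 0.01 and 0.09). The trehalase gene tre-3, whose product splits trehalose, rose by 0.58 ± 0.09 and 1.05 ± 0.09. At 0.2 mM gyg-1, which encodes glycogenin, rose by 0.55 ± 0.09, although its arrays stayed below log2 5, and at 2.0 mM gob-1, which encodes trehalose-6-phosphate phosphatase, rose by 0.55 ± 0.16. Between the doses 1 glycolysis gene was higher at 2.0 mM and 2 were lower, 2 citric acid cycle genes were higher and 1 lower, 3 propionate genes were higher, and 1 of the trehalose and glycogen genes was higher, tre-3 (0.47 ± 0.09).

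**Figure D3:**
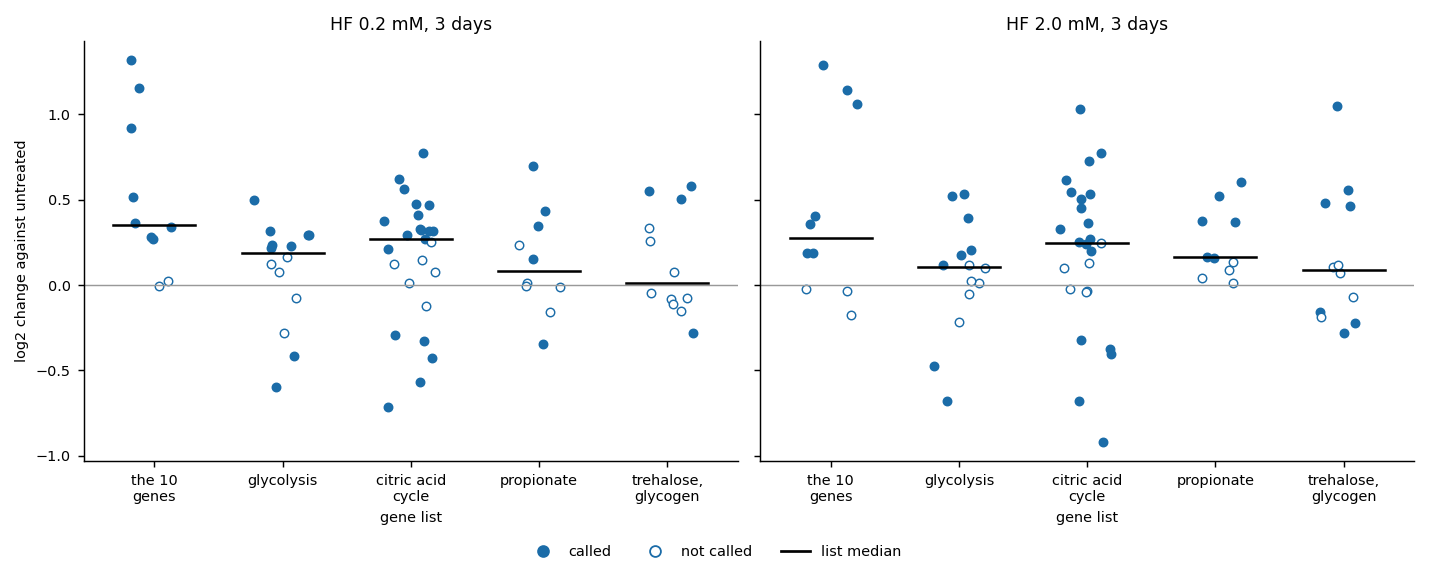
The log2 change of each gene against untreated 3-day-old worms is shown by gene list for 0.2 mM HF (left) and 2.0 mM HF (right), with filled points for called genes and a bar at the list median. The 10 genes have medians of 0.35 and 0.27. At 2.0 mM the genes of the propionate list all lie above 0, while pck-2, fbp-1 and gpi-1 among the 10 lie below it.

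In 11-day-old worms fewer of the 10 genes were called with HF than in 3-day-old worms, and so were fewer of all probe sets. At 0.2 mM limma called 0 of the 10, where 3.22% of all probe sets were called higher and 0.784% lower. At an unadjusted p under 0.05, 1 gene was higher, aldo-1 (0.25 ± 0.09, adjusted p = 0.17), and 0 were lower, with 1001 probe sets higher and 455 lower among all. The balance of all calls was 357 higher and 87 lower as deposited, 265 and 140 with centred arrays, and 340 and 160 after quantile normalization. The 95% intervals of the change were -0.21 to 0.11 for icl-1, -0.18 to 0.12 for pck-1 and -0.16 to 0.06 for pck-2.

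At 2.0 mM HF 3 of the 10 genes rose in 11-day-old worms and 0 fell, against 13.4% of all probe sets higher and 14.8% lower. These were 1492 and 1648 probe sets as deposited, 1694 and 1673 after quantile normalization, and 1251 and 1994 with centred arrays. The level of mdh-2 was 9.79, 9.85 and 9.84 at 0 mM, 9.90, 9.88 and 9.82 at 0.2 mM and 10.13, 10.19 and 10.17 at 2.0 mM. The 2.0 mM arrays stood above all others, with a change of 0.34 ± 0.05 against untreated worms (adjusted p = 5.2e-05). Its second probe set did not show this (-0.02), and the mean of both was not called (0.16, adjusted p = 0.10). For mdh-1 the arrays read 11.09, 11.22 and 11.10 at 0 mM, 11.22, 11.23 and 11.14 at 0.2 mM and 11.36, 11.33 and 11.27 at 2.0 mM, a rise of 0.18 ± 0.05 at 2.0 mM (adjusted p = 0.0079) that was not called with the arrays of this comparison alone (adjusted p = 0.070). The level of pck-1 was 8.69, 8.45 and 8.64 at 0 mM, 8.61, 8.56 and 8.52 at 0.2 mM and 8.77, 8.79 and 8.84 at 2.0 mM. The 2.0 mM arrays lay above the others by a small margin, and the rise of 0.20 ± 0.07 (adjusted p = 0.036) was lost in 6 of 14 alternatives, in one of them without array 2 of the untreated worms (0.13, adjusted p = 0.22).

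The gene icl-1 had 8.99, 8.85 and 9.04 at 0 mM, 8.93, 8.96 and 8.83 at 0.2 mM and 9.06, 9.00 and 9.16 at 2.0 mM HF in the 11-day-old worms. The 2.0 mM arrays overlapped the untreated ones, and the change of 0.12 ± 0.08 was not called (adjusted p = 0.29). Neither pck-2, with 11.38, 11.42 and 11.51 at 0 mM, 11.40, 11.38 and 11.38 at 0.2 mM and 11.38, 11.31 and 11.37 at 2.0 mM, nor fbp-1, aldo-2 and pcca-1 were called against untreated worms at this age. Their changes at 2.0 mM were -0.09, -0.00, 0.08 and -0.09. The level of gpi-1 was 8.05, 7.93 and 7.96 at 0 mM, 8.06, 7.94 and 8.06 at 0.2 mM and 8.23, 8.22 and 8.30 at 2.0 mM, which kept the 2.0 mM arrays apart from the rest. The fit over all arrays did not call its change of 0.27 ± 0.16 (adjusted p = 0.20), and the fit of this comparison alone did (adjusted p = 0.021).

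Between 2.0 and 0.2 mM HF at 11 days 3 of the 10 genes were called, where 30.5% of all probe sets were called in either direction. After quantile normalization these were 1848 higher and 1818 lower probe sets, against 1351 and 2033 as deposited. At 2.0 mM the gene pck-1 was higher by 0.23 ± 0.07 (adjusted p = 0.016) and mdh-2 by 0.29 ± 0.05 (adjusted p = 0.00018, or 0.42 for the mean of its probe sets). The level of aldo-1 was 6.31, 6.04 and 6.25 at 0 mM, 6.39, 6.45 and 6.51 at 0.2 mM and 6.08, 6.01 and 6.21 at 2.0 mM, so that it was lower at 2.0 mM than at 0.2 mM (-0.35 ± 0.09, adjusted p = 0.0060). Its second probe set lay between 6.47 and 6.59 in all 9 arrays of this age and did not differ between the doses (0.00).

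In the neighbouring pathways 8 citric acid cycle genes rose and 1 fell at 2.0 mM HF at 11 days, with 0.54 ± 0.09 for ogdh-1, a subunit gene of oxoglutarate dehydrogenase. The glycogen phosphorylase gene pygl-1 rose by 0.45 ± 0.07, and tre-3, which had risen at 3 days, fell (-0.47 ± 0.09). At 0.2 mM only 2 genes of the 4 pathway lists were called, the propionate shunt genes acdh-1 (-0.59 ± 0.08) and hphd-1 (-0.49 ± 0.06), both lower. Of the tissue markers at 2.0 mM, 17 of 25 germ line and oocyte genes and 20 of 26 sperm genes rose and 0 of them fell. The germ line list means were 10.44 to 10.45, 10.44 to 10.46 and 10.71 to 10.76 at 0, 0.2 and 2.0 mM. Sperm list means were 4.83 to 4.99, 5.45 to 5.48 and 5.48 to 5.67 at these doses, and 10 to 14 of the 30 sperm genes on the array were below log2 5 in every array of a group. Of the gut list 2 rose and 4 fell at 2.0 mM (means 7.87 to 7.88, 7.91 to 7.96 and 7.83 to 7.86), with elt-7 among those below log2 5, of the muscle list 5 rose and 3 fell (means 6.95 to 6.98, 7.13 to 7.14 and 7.03 to 7.09), and of the hypodermis list 5 rose and 0 fell (means 6.35 to 6.49, 6.62 to 6.64 and 6.58 to 6.62). Their part in the results at 11 days was not tested.

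With HF-HQ at the same doses and harvest at 3 days, the 10 genes were called in both directions at 0.2 mM, as all probe sets were. At 0.2 mM HF-HQ 1 of the 10 genes rose and 3 fell, with 15.9% of all probe sets higher and 14.3% lower (1761 and 1592 as deposited, 2600 and 1429 with centred arrays). At 2.0 mM HF-HQ 1 rose and 0 fell, with 13.2% higher and 10.3% lower; at an unadjusted p under 0.05 limma gave 2 higher and 0 lower. Between the doses 4 genes were higher and 1 lower at 2.0 mM, with 17.5% of all probe sets higher and 15.7% lower (1948 and 1738 as deposited, 1775 and 2238 with centred arrays). The counts at 0.2 mM depended on array 2 of that dose. Without it 1 gene rose and 1 fell, aldo-1 and pck-2, and limma fitted to the arrays of this comparison alone called none of the 10 (1 higher and 2 lower at an unadjusted p under 0.05).

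With HF-HQ icl-1 had 12.77, 12.69 and 12.78 at 0 mM, 12.55, 12.49 and 12.73 at 0.2 mM and 12.82, 12.84 and 12.75 at 2.0 mM. The change of icl-1 was -0.16 ± 0.08 at 0.2 mM (adjusted p = 0.13) and 0.06 ± 0.08 at 2.0 mM (adjusted p = 0.71). Of its other probe sets 1 was called at 0.2 mM (-0.20 ± 0.07, adjusted p = 0.029). The level of pck-1 was 10.05, 9.97 and 9.95 at 0 mM, 9.82, 9.67 and 9.82 at 0.2 mM and 10.30, 10.24 and 10.17 at 2.0 mM, 3 groups that did not overlap. It fell at 0.2 mM (-0.22 ± 0.07, adjusted p = 0.024) and rose by 0.25 ± 0.07 at 2.0 mM (adjusted p = 0.012). Over the 14 alternatives of each these calls were lost in 3 and in 2, and without array 2 at 0.2 mM the change of pck-1 at that dose was -0.17 (adjusted p = 0.14). For pck-2 the arrays read 13.54, 13.54 and 13.64 at 0 mM, 13.35, 13.24 and 13.15 at 0.2 mM and 13.53, 13.56 and 13.48 at 2.0 mM. The 0.2 mM arrays lay below all others, and pck-2 fell at this dose (-0.32 ± 0.05, adjusted p = 0.00015), the dose at which HF had raised it.

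The aldolase gene aldo-1 had 10.09, 9.97 and 9.99 at 0 mM, 10.23, 10.32 and 10.56 at 0.2 mM and 10.13, 10.24 and 10.31 at 2.0 mM HF-HQ. Its treated arrays lay above all untreated ones, with a rise of 0.35 ± 0.09 at 0.2 mM (adjusted p = 0.0059) and a change of 0.20 ± 0.09 at 2.0 mM that was not called (adjusted p = 0.12). The second probe set of aldo-1 was not called at either dose (0.16 and 0.02). The isomerase gene gpi-1 had 10.82, 11.06 and 11.07 at 0 mM, 10.95, 9.89 and 10.75 at 0.2 mM and 11.01, 11.07 and 11.18 at 2.0 mM, so that array 2 at 0.2 mM lay below the other 8. Its fall at 0.2 mM (-0.46 ± 0.16, adjusted p = 0.031) was not called without that array (-0.14, adjusted p = 0.27). The bisphosphatase gene fbp-1 had 11.99, 12.03 and 12.03 at 0 mM, 12.15, 12.21 and 11.89 at 0.2 mM and 11.82, 11.98 and 11.96 at 2.0 mM, and the groups at 0.2 and 0 mM overlapped. Neither dose was called against untreated worms for this probe set (0.07 ± 0.06 and -0.10 ± 0.06), and both were for the second one (0.15 ± 0.06, adjusted p = 0.048, and -0.18 ± 0.06, adjusted p = 0.021).

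The genes mdh-1, mdh-2 and aldo-2 were called at neither dose of HF-HQ. Their 95% intervals at 0.2 mM were -0.09 to 0.11, -0.11 to 0.10 and -0.14 to 0.11. The probe sets of pcca-1 disagreed. The first had 11.90, 12.03 and 11.96 at 0 mM, 11.83, 12.04 and 11.90 at 0.2 mM and 11.90, 11.92 and 11.82 at 2.0 mM and was called at neither dose. The second had 10.34, 10.38 and 10.65 at 0 mM, 9.91, 9.83 and 9.84 at 0.2 mM and 10.57, 10.42 and 10.31 at 2.0 mM, with a fall at 0.2 mM (-0.59 ± 0.08, adjusted p = 2.4e-05) and no call at 2.0 mM (-0.02). In the direct comparison of 2.0 with 0.2 mM HF-HQ, icl-1 was higher by 0.21 ± 0.08 (adjusted p = 0.039), pck-1 by 0.47 ± 0.07 (adjusted p = 2.0e-05), pck-2 by 0.28 ± 0.05 (adjusted p = 0.00037) and gpi-1 by 0.56 ± 0.16 (adjusted p = 0.0080), and fbp-1 was lower (-0.16 ± 0.06, adjusted p = 0.047). The icl-1 and fbp-1 calls were each lost in 4 of the 6 alternatives that left out an array of this comparison, array 2 at 0.2 mM among them, and without that array the difference of gpi-1 was 0.24 (adjusted p = 0.034).

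In the neighbouring pathways 0.2 mM HF-HQ called 3 glycolysis genes higher and 3 lower, 4 citric acid cycle genes higher and 2 lower, 2 propionate genes higher and 0 lower, and 1 trehalose or glycogen gene higher and 5 lower. Without array 2 these became 2 and 3, 0 and 2, 1 and 0, and 0 and 1. The hexokinase gene hxk-2 had 8.63, 7.27 and 7.95 at 0.2 mM and 8.96, 8.90 and 8.78 at 0 mM, a fall of -0.93 ± 0.18 with array 2 lowest (-0.59 ± 0.13, adjusted p = 0.0025, without that array). At 2.0 mM 4 propionate genes fell and 0 rose, among them hphd-1 (-0.38 ± 0.06), and tre-3 rose by 0.44 ± 0.09. Of the markers, 21 of 26 sperm genes rose at 0.2 mM HF-HQ and 0 fell, and 11 of 17 gut genes rose at 2.0 mM and 0 fell. The sperm means were 6.11 to 6.33, 6.80 to 7.08 and 5.95 to 6.35 at 0, 0.2 and 2.0 mM, with gsp-3, gsp-4 and spe-9 below log2 5, and the gut means 10.10 to 10.17, 10.11 to 10.26 and 10.76 to 10.80. Of 25 germ line genes 9 fell at 0.2 mM, and 1 rose and 6 fell at 2.0 mM (means 12.53 to 12.55, 12.26 to 12.45 and 12.45 to 12.47). Of 19 muscle genes 7 rose at 0.2 mM and 2 rose and 2 fell at 2.0 mM, and of 13 hypodermis genes 1 rose and 1 fell, and 2 rose and 4 fell. Without array 2 the sperm count was again 21, and 4 muscle genes rose and 5 germ line genes fell at 0.2 mM. The part of these shifts was not tested.

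The response to 0.2 mM HF differed between 11-day-old and 3-day-old worms for 8 of the 10 genes, all with the smaller value at 11 days, against 26.1% of all probe sets with a higher and 16.6% with a lower response at 11 days. These shares were 2901 and 1838 probe sets, and 1951 and 2615 with centred arrays. The log2 change of icl-1 was -0.05 at 11 days and 0.92 at 3 days, a difference of -0.97 ± 0.11 (adjusted p = 9.0e-07). For pck-1 it was -0.03 at 11 days and 1.15 at 3 days, a difference of -1.18 ± 0.10. At 2.0 mM 4 genes differed, aldo-1 (-1.39 ± 0.13), icl-1 (-0.94 ± 0.11), pck-1 (-0.94 ± 0.10) and pcca-1 (-0.45 ± 0.12), with 32.7% of all probe sets higher and 29.3% lower (3635 and 3249 as deposited, 3041 and 3811 with centred arrays). The mdh genes rose at 2.0 mM at both ages by their probe sets of highest mean. The second probe set of mdh-2 gave only 0.13 at 3 days and -0.02 at 11 days. The call of mdh-1 at 11 days was lost with the arrays of that comparison alone. By the probe sets of highest mean the differences were -0.00 ± 0.07 for mdh-1 and -0.07 ± 0.07 for mdh-2. Their 95% intervals were -0.15 to 0.14 and -0.22 to 0.08. Age and experiment changed together, so that they cannot be told apart in these differences.

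Responses to HF-HQ and HF at 3 days also differed. At 0.2 mM 8 genes had a lower response to HF-HQ and 0 a higher one, with 24.4% of all probe sets higher and 15.8% lower. The difference was -1.37 ± 0.10 for pck-1 (-0.22 with HF-HQ, 1.15 with HF), -1.08 ± 0.11 for icl-1 (-0.16 with HF-HQ, 0.92 with HF), -0.97 ± 0.13 for aldo-1 (0.35 with HF-HQ, 1.32 with HF) and -0.66 ± 0.08 for pck-2 (-0.32 with HF-HQ, 0.34 with HF). At 2.0 mM 6 genes had a lower response to HF-HQ and 0 a higher one, with 27.6% of all probe sets higher and 20.6% lower (3063 and 2289 as deposited, 2620 and 2686 with centred arrays), and pck-2 did not differ beyond its error (-0.01, 95% interval -0.17 to 0.15). Each preparation was tested in an experiment with its own controls, and preparation and experiment cannot be told apart. The untreated 3-day-old worms of both already stood at different ranks: the median percentile of icl-1 was 94.5 in the HF-HQ experiment and 57.1 in the HF experiment. In the same order those of pcca-1 were 88.9 and 69.2, of aldo-1 59.6 and 42.3, and of pck-1 59.1 and 47.2. In contrast, pck-2 (97 and 97.1), aldo-2 (97.6 and 96.9), mdh-1 (97.1 and 96.4) and gpi-1 (77.3 and 76.3) stood at nearly the same rank, and fbp-1 (89.6 and 87.2) and mdh-2 (95.8 and 89.3) between. Sperm marker means were 6.11 to 6.33 in these HF-HQ controls and 9.48 to 9.55 in the HF controls as deposited, and 5.79 to 6.08 and 10.93 to 11.00 after quantile normalization.

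Untreated worms of 11 and 3 days differed in all 10 genes, with 3 higher and 7 lower at 11 days as deposited and 4 higher and 6 lower after quantile normalization, while 27.9% of all probe sets were higher and 51.2% lower as deposited. The median of all tested probe sets was itself shifted by -0.24 in the deposited values, and by 0.04 after quantile normalization, which gave 4516 probe sets higher and 3970 lower. Against this shift, pck-1 had 8.69, 8.45 and 8.64 at 11 days and 7.33, 7.37 and 7.43 at 3 days, and was higher by 1.22 ± 0.07 as deposited and by 1.37 ± 0.07 after quantile normalization. The gene icl-1 had 8.99, 8.85 and 9.04 at 11 days and 8.22, 8.02 and 8.09 at 3 days, higher by 0.85 ± 0.08 and 1.08 ± 0.08 on these scalings. For pcca-1 the arrays read 9.50, 9.51 and 9.51 at 11 days and 8.91, 8.80 and 8.96 at 3 days, higher by 0.62 ± 0.08 and 0.94 ± 0.08. The levels of icl-1 and pck-1 in untreated 11-day-old worms were thus near those of 3-day-old worms kept with HF, also by rank. The median percentile of icl-1 was 74.9 in untreated worms at 11 days, and at 3 days it was 71.2 with 0.2 mM and 73.6 with 2.0 mM HF.

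The largest fall with age was that of gpi-1, with 8.05, 7.93 and 7.96 at 11 days and 9.39, 9.39 and 9.57 at 3 days (-1.47 ± 0.16 as deposited, -1.18 ± 0.16 after quantile normalization). The gene aldo-1 had 6.31, 6.04 and 6.25 at 11 days and 7.0, 7.01 and 7.10 at 3 days (-0.84 ± 0.09 and -0.67 ± 0.09). The genes pck-2, mdh-1, mdh-2 and fbp-1 were lower by both scalings, with differences of -0.80, -0.75, -0.69 and -0.63 as deposited and -0.14, -0.19, -0.24 and -0.20 after quantile normalization. The direction of aldo-2 flipped with the scaling, with -0.34 ± 0.06 as deposited and 0.27 ± 0.06 after quantile normalization (adjusted p = 0.00032). Of the 10 genes, then, 3 were higher and 6 lower at 11 days on both scalings.

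With age 10 of 14 glycolysis genes, 19 of 25 citric acid cycle genes and 8 of 10 propionate genes fell as deposited, and 0, 1 and 2 rose (medians -0.49, -0.57 and -1.25, against -0.24 for all probe sets). After quantile normalization 5, 14 and 8 were lower and 1, 5 and 2 higher. The propionate shunt gene hphd-1 (-3.30 ± 0.06) and the pyruvate kinase gene pyk-2 (-3.10 ± 0.07) fell, while tps-1, which encodes a trehalose-6-phosphate synthase, rose by 0.77 ± 0.14. After quantile normalization these were -2.92 ± 0.06, -2.79 ± 0.06 and 1.01 ± 0.15. Tissue markers shifted too: 26 of 26 sperm genes, 16 of 19 muscle genes, 13 of 17 gut genes, 14 of 25 germ line genes and 8 of 13 hypodermis genes fell, and 0, 0, 4, 4 and 4 rose. The germ line list flipped with the scaling, with 15 higher and 1 lower after quantile normalization, and the other lists did not. Sperm list means were 4.83 to 4.99 at 11 days and 9.48 to 9.55 at 3 days, and gut list means 7.87 to 7.88 and 8.85 to 8.94; after quantile normalization they were 5.80 to 5.97 and 10.93 to 11.00, and 8.61 to 8.62 and 9.26 to 9.34. Age and experiment cannot be told apart here, and the part of the tissue shifts was not tested.

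**Figure D4:**
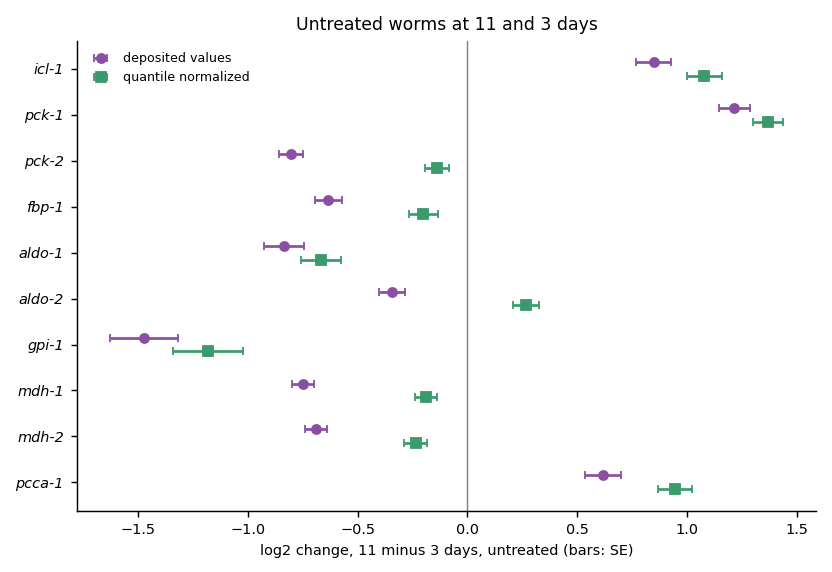
The log2 change between untreated worms of 11 and 3 days is plotted for each gene as deposited (circles) and after quantile normalization (squares), with bars for the SE. The genes icl-1, pck-1 and pcca-1 lie above 0 on both scalings, and aldo-2 changes sides.

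Across all 27 arrays icl-1 and pck-1 varied together. With the mean of each experiment taken off, their Pearson correlation was 0.951, which made each the most like the other of 8362 genes. It was 0.971 in the 9 arrays of HF at 3 days and 0.847 in the other 18. The next most like icl-1 were nspg-7.2 (0.931), ucr-2.1 (0.909), which encodes a subunit of the mitochondrial cytochrome bc1 complex, pept-2 (0.902) and sucl-1 (0.902). The next most like pck-1 were nspg-7.2 (0.909), brp-1 (0.907), daf-22 (0.899), which encodes a thiolase of peroxisomal beta-oxidation, and suca-1 (0.891), which encodes a subunit of succinyl-CoA ligase. Most of these likenesses rested on HF at 3 days. In the other 18 arrays icl-1 had -0.12 with nspg-7.2, 0.30 with ucr-2.1, 0.34 with pept-2 and 0.01 with sucl-1. For pck-1 the values there were -0.38 with nspg-7.2, 0.78 with brp-1, 0.51 with daf-22 and 0.57 with suca-1. The arrays share treatments and controls, and these values are descriptions without a test.

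**Figure D5:**
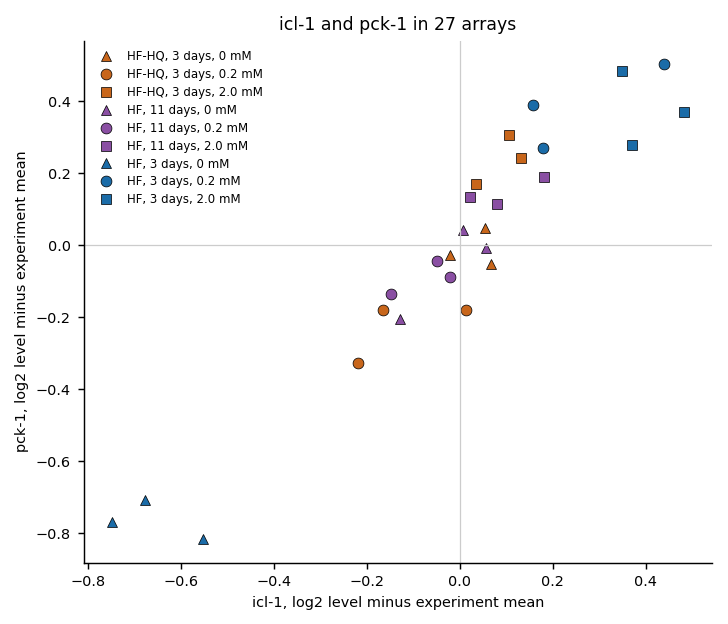
Each point is 1 of 27 arrays, with the log2 level of icl-1 (x) and of pck-1 (y) minus the mean of the experiment; colours are the experiments and shapes the doses. The 3 untreated arrays of HF at 3 days lie at the lower left, and the 18 arrays of the other experiments lie near the centre (correlation 0.847 among them).

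The other genes followed this pair to different degrees. Over the 27 arrays icl-1 correlated at 0.843 with aldo-1, 0.770 with aldo-2, 0.755 with mdh-2, 0.669 with mdh-1 and 0.592 with pcca-1. It was hardly related to pck-2 (0.288) and gpi-1 (0.076), and fbp-1 had -0.24. Outside HF at 3 days only aldo-2 (0.717) and gpi-1 (0.642) exceeded 0.5 with icl-1, beside pck-1, while fbp-1 had -0.61 and aldo-1 -0.28. The value of gpi-1 includes array 2 at 0.2 mM HF-HQ, where icl-1 and gpi-1 both had their lowest level of that experiment. A correlation without this array was not computed. The pair of mdh genes correlated with each other at 0.843, whereas pck-1 and pck-2 did so at 0.422 and aldo-1 and aldo-2 at 0.698. All 3 pairs are paralogs, and pck-2, unlike pck-1, neither rose at 2.0 mM HF at 3 days nor was higher with age.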

How the data were processed

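RNA of whole worms was hybridised to 27 Affymetrix arrays, 3 for each of 9 groups. The authors deposited 1 log2 value per probe set and array, made with GCRMA (background correction, normalization and summary of the probes) per the submitters' processing notes. Whether the 3 experiments were normalized together is not given in the sources used here, and their value distributions were separate. Counts of reads do not exist for arrays, so precision is limited by the number of arrays. The table held 22625 probe sets, 77 of them controls that were not used; of the other 22548, the 11102 with log2 over 5 in at least 3 of 27 arrays were tested. Symbols came from the platform annotation, updated through gene identifiers: 10533 tested probe sets had 1 symbol, 378 several and 191 none. A gene was represented by its probe set of 1 symbol with the highest mean over the 27 arrays.

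limma 3.58.1 (R 4.3.3) was fitted to all tested probe sets with 1 mean per group, which left 18 residual degrees of freedom. It gave 14 contrasts with two-sided p-values, adjusted by Benjamini-Hochberg over all 11102 probe sets, called under 0.05. The fit was tested on simulated data with changes added for 2.0 mM HF at 3 days. It found 69 of 100 rises of 0.5 log2 and 99 of 100 falls of 1 log2, and made 13 false calls. A gene that is not called can thus still have changed, also by 0.5. The simulation changed 100 probe sets per size, whereas 6756 were called in the data, so the share found there can differ. The 0.2 and 2.0 mM comparisons of an experiment share their untreated arrays. The 10 genes and the 9 pathway and marker lists were chosen with earlier results of these data known. In each pathway list the genes named were at most 2 called ones per comparison, those of largest change. Likeness to icl-1 and pck-1 was ranked by Pearson correlation over 27 arrays after taking off experiment means. Same-numbered arrays of different groups did not deviate together (3 of 27 correlations were over 0.1, 16 were negative, range -0.30 to 0.43), so numbers were not used as pairs. Alternatives were no filter, a filter at log2 7, centred arrays, quantile normalization, a variance trend, the number as a block, the arrays of a comparison alone, each array left out, and the mean of a gene's probe sets. Values of the pathway and marker lists under other scalings and without array 2 at 0.2 mM HF-HQ were added after seeing the data.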

Additional observations from a re-analysis of the deposited data

Results flagged for a closer look

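Responses that differed between experiments were found for 8 of the 10 genes by the test of the difference itself (limma, adjusted over all tested probe sets). Such differences were common among all 11102 probe sets. Between ages 4739 were called at 0.2 mM and 6884 at 2.0 mM, and between preparations 4467 and 5352. The share of all probe sets called in any of these 4 comparisons was not counted, so the 8 genes cannot be set against it. For icl-1 the response at 11 days minus that at 3 days was -0.97 at 0.2 mM and -0.94 at 2.0 mM HF, and the response to HF-HQ minus that to HF was -1.08 at 0.2 mM and -1.0 at 2.0 mM. For pck-1 these 4 differences were -1.18, -0.94, -1.37 and -0.89, and for aldo-1 -1.07, -1.39, -0.97 and -1.09. The 4 values of pcca-1 were -0.46, -0.45, -0.56 and -0.44. For pck-2 only the 0.2 mM responses differed, by -0.39 between ages and by -0.66 between preparations, and for aldo-2 likewise by -0.28 and -0.30. The response of mdh-1 differed by -0.21 between ages at 0.2 mM, and between preparations by -0.26 at 0.2 mM and -0.20 at 2.0 mM. For mdh-2 these were -0.32, -0.37 and -0.44, and its second probe set gave smaller differences of -0.23, -0.22 and -0.12. By the probe sets of highest mean all 26 differences ran the same way, with the response to HF at 3 days the higher one. All 26 share the untreated 3-day arrays of the HF experiment.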

How the results depend on the processing

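Of 2200 values of the 10 genes over the alternatives, 2130 kept direction and side of the threshold, 49 lost and 19 gained a call, and 2 reversed. The reversed values were aldo-2 with age (0.27 after quantile normalization, -0.34 as deposited) and pcca-1 between 2.0 and 0.2 mM HF-HQ (0.26 for the mean of its probe sets, -0.04 for the first). The counts of called genes with HF at 3 days were 8 in every alternative at 0.2 mM and 6 to 7 at 2.0 mM. Between 2.0 and 0.2 mM HF at 3 days 1 gene was called, 2 when only its own arrays were fitted and 1 to 3 with an array left out (3 without array 3 at 0.2 mM). At 11 days the same comparison called 3, and 5 after quantile normalization. At 0.2 mM HF-HQ 4 were called, 0 when limma was fitted to its own arrays (1 higher and 2 lower at an unadjusted p under 0.05), and 2 to 6 with an array left out (2 without array 2 at 0.2 mM, 6 without array 3). At 2.0 mM HF-HQ 1 was called, 2 for the mean of probe sets and 0 to 1 with an array left out (0 without untreated array 3, with 1 higher at an unadjusted p under 0.05, or without array 1 at 2.0 mM, with 2 higher). Between 2.0 and 0.2 mM HF-HQ 5 were called, 1 with its own arrays alone, 3 to 5 with an array left out and 3 with the array number as a replicate block. The block, for which same-numbered arrays share only a number, moved no other count of the 10 genes by over 1.5 times. The number of all called probe sets moved by over 1.5 times without a filter, which tests more probe sets, to 767, against 444, at 0.2 mM HF at 11 days, to 8564, against 2608, at 2.0 mM HF-HQ and to 16405, against 8780, with age. With a comparison's own arrays alone, which are fewer, it was 376, against 3353, at 0.2 mM HF-HQ and 1523, against 3686, between the HF-HQ doses. It was 1954 without array 2 at 0.2 mM HF-HQ and 286 without array 3 at 0.2 mM HF at 11 days. The cause of the other changes was not tested. With 3 arrays per group the 95% interval of gpi-1 was as wide as -0.30 to 0.34 (0.2 mM HF at 3 days).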

Other observations

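Of 432 pairs of arrays of a group, over the 16 probe sets of the 10 genes, 13 held values equal to 6 decimals, and 7 of these were of fbp-1. Over all tested probe sets 2.18% of 299754 such pairs were equal. Both probe sets of fbp-1 were lower at 2.0 than at 0.2 mM HF-HQ, the second by -0.33 ± 0.06 and the first by -0.16 ± 0.06.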
